A study of Mus musculus with 6 samples.

Results

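The genes described here are the 4 mouse receptors for the Fc part of immunoglobulin G (IgG), Fcgr1, Fcgr2b, Fcgr3 and Fcgr4, the adaptors Fcer1g and Tyrobp, the receptors Trem1 and Trem2, and the kinase Syk. They were taken by symbol from the gene list of the deposited matrices, and all 9 of 9 were found among 32285 genes. Single-cell RNA was measured in cells of the rotator cuff enthesis, the insertion of the supraspinatus tendon into bone, at 7 days postinjury (dpi) after the tendon of adult mice had been cut and sutured back. There were 3 libraries from wild-type C57BL/6 mice and 3 from Nlrp3-/- mice, in which every cell is without Nlrp3, an inflammasome sensor. All 6 libraries came from injured and repaired tissue. Entheses were pooled for the libraries and the labels do not give the number of animals, so each p-value below measures the spread between libraries. The genotype labels of Nlrp3-/- replicates 2 and 3 name Nlrp4 and Nlrp5, while their titles name Nlrp3.

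Fc gamma receptors bind cells, debris and complexes coated with IgG. The activating receptors Fcgr1, Fcgr3 and Fcgr4 have no signalling motif of their own and work through Fcer1g, the common gamma chain, whose immunoreceptor tyrosine-based activation motif (ITAM) recruits the kinase Syk once it is phosphorylated. Fcgr2b carries an inhibitory motif instead and restrains the same cells, and it is the classical Fc gamma receptor of B cells. Trem1 and Trem2 signal through Tyrobp (also called DAP12), a second ITAM adaptor that is also used by receptors of natural killer (NK) cells and of osteoclast precursors. Trem1 is known for amplifying inflammatory signals in neutrophils and monocytes, and Trem2 for binding lipids and apoptotic debris in tissue macrophages.

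The libraries held between 97042713 and 134901999 unique molecular identifiers (UMIs, counted molecules). After filtering and removal of doublets, 80961 cells remained. Of these, 13604 lay in clusters found mainly in 1 library (limit 75% of the cells) and were set aside. Nlrp3-/- replicate 1 stood apart in this respect, with 12719 of its 21071 cells (60.4%) set aside against 0.941% to 2.16% in the other libraries. The remaining 67357 cells fell into 13 cell types, and 6 to 12 of the 10 to 12 markers of each type were highest in it. Pairs of libraries shared 24 to 98 cell barcodes, at most 0.653% of the smaller library. Nlrp3 had 7291, 14088 and 10760 UMIs in the wild-type libraries and 0 in each Nlrp3-/- library. Sex went with genotype: the wild-type libraries had 3414 to 4870 UMIs of the Y-linked gene Ddx3y and 0 to 12 of Xist, and the Nlrp3-/- libraries had 0 and 53981 to 88725, so the genotype and the sex of the animals cannot be told apart. Levels are given as the UMIs of a gene per 1000000 UMIs of a cell type in a library (CPM), with the SD over libraries. Cell types and subsets come from the same 6 libraries, and their levels are described without a test.

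Positions are those of the GENCODE annotation on mouse build GRCm38. The genes Fcgr2b (chr1:170958617-170976547), Fcgr4 (chr1:171018920-171029761), Fcgr3 (chr1:171051174-171064935) and Fcer1g (chr1:171229572-171234365) are near each other on chromosome 1, with Fcgr4 on the plus strand and the other 3 on the minus strand. Fcgr1 is on chromosome 3 (chr3:96282909-96293969, minus strand) and Tyrobp on chromosome 7 (chr7:30413760-30417585, plus strand). Trem1 (chr17:48232768-48246924) and Trem2 (chr17:48346401-48354147) both lie on the plus strand of chromosome 17, and Syk on that of chromosome 13 (chr13:52583173-52648792). The transcripts of Fcgr2b and Fcgr3 share an identical run of 129 bases. Within their last 500 bases, where 3′ libraries are read, the longest shared run was 9 bases, and it was at most 13 bases for every other pair of the 4 receptors.

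Because each of the 9 genes was highest in a myeloid type or subset, their promoters were searched for the letters GAGGAA on either strand, the core that the myeloid factor PU.1 and its relatives read. The RefSeq table of promoters (build GRCm38.p6) held 8 of the 9 genes, all but Tyrobp. In the 250 bases before a start, 6 of the 8 had a match at 1 start or more, against 6986 of all 27025 genes in the table (25.9%). Counted by promoter it was 7 of 10 against 7639 of all 32851 (23.3%), where the 2 promoters of Fcgr3 overlap and hold the same match. Fcgr2b and Fcer1g had none. The 60 bases that end at the RefSeq start are shown for Fcgr4 (chr1:171018866-171018925, plus strand), Fcgr3 (chr1:171059395-171059454, minus strand), Fcgr1 (chr3:96293970-96294029, minus strand) and Trem2 (chr17:48346341-48346400, plus strand), and the 21 bases that end there for Syk (chr13:52596861-52596881, plus strand), since in these 5 genes the match lay within 49 bases of a start. RefSeq gives Fcgr3 and Syk 2 starts each, of which 1 is shown. The starts shown for Fcgr3 and Syk lie inside their longer GENCODE genes, and the window of Fcgr4 reaches 6 bases into its GENCODE gene. The sequences read 5′ to 3′ on the strand of the gene. The capitals mark GAGGAA in Syk, and in the other 4 TTCCTC, the match as it reads from the opposite strand. A match of letters is a description and does not show that a factor binds there.
Fcgr4: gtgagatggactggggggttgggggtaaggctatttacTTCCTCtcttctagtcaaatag
Fcgr3: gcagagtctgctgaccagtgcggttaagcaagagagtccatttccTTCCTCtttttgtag
Fcgr1: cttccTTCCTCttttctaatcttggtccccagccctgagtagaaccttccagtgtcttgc
Trem2: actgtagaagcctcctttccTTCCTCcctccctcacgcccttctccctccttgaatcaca
Syk: tgctgacactttGAGGAAaag

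The activating receptors differed in the cells that carried them. Fcgr1, the high-affinity IgG receptor, was a macrophage transcript, and 93.8 ± 0.606% (SD, n = 6) of its UMIs lay in macrophages, which held 22.8% to 38.4% of all UMIs. Its highest level was in macrophages marked by Arg1 and Spp1, at 529, 328 and 200 CPM in wild-type replicates 1 to 3 and at 222, 281 and 242 CPM in Nlrp3-/- replicates 1 to 3. It was higher there than in the macrophages with MHC class II genes (175 ± 21.3 CPM) in 6 of 6 libraries. The level depends on how finely the cells were clustered. At a clustering resolution of 2.0 that of the Arg1 Spp1 macrophages was 142 CPM, and the order of the subsets at that resolution is not given here. C1q Mrc1 macrophages (121 ± 10.8 CPM) and Ly6c2 Ccr2 monocytes (93.4 ± 25.8 CPM) followed with overlapping ranges. Osteoclasts, which arise from the same precursors, had 5.98 to 23.2 CPM, on average 0.0816 times the level of the C1q Mrc1 macrophages. Neutrophils were at 0.531 to 4.25 CPM. That is 2.74% to 9.30% of the level of Fcgr1 in free RNA, as read from barcodes that hold no more than 100 UMIs. Mesenchymal cells were at 1.58% to 4.75% of it, with medians of 9714 to 17213 UMIs per cell against 1324 to 3897 in neutrophils. The part of free RNA in the neutrophil values was not tested.

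Fcgr3, the low-affinity activating receptor, was spread over macrophages and neutrophils alike. It stood at 383 ± 39.2 CPM in C1q Mrc1 macrophages, 319 ± 47.1 CPM in mature neutrophils and 287 ± 26.9 CPM in MHC-II macrophages (n = 6). The range of the mature neutrophils overlapped with both of the others, while the C1q Mrc1 macrophages lay above the MHC-II macrophages with no overlap. In osteoclasts it was at 10.2 ± 4.62 CPM, 0.0246 times the level of the C1q Mrc1 macrophages and lower in 6 of 6 libraries. Conventional dendritic cells lay between them at 38.8 to 68.7 CPM.

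Fcgr4, which binds the IgG2 subclasses, had its highest level in a small cluster of 340 cells within the macrophages whose leading genes include Ace and Treml4. The wild-type libraries had 161, 283 and 178 CPM there and the Nlrp3-/- libraries 362, 409 and 224 CPM. Every one of these values was above the highest value in mature neutrophils, the type with the next level. Against the Ly6c2 Ccr2 monocytes the cluster was 8.45-fold higher, in 6 of 6 libraries. Mature neutrophils had 95.6, 108 and 88.4 CPM in wild-type and 48.6, 133 and 110 CPM in Nlrp3-/- libraries, close to MHC-II macrophages (89.7 ± 23.1 CPM).

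Fcgr2b, the inhibitory receptor, was high in macrophages and in conventional dendritic cells, which present antigen to T cells. Its level was 613 ± 167 CPM in C1q Mrc1 macrophages, 587 ± 144 CPM in MHC-II macrophages and 552 ± 162 CPM in Arg1 Spp1 macrophages, and these did not differ beyond the spread of the libraries. On average over the libraries they were 2.64-, 2.54- and 2.38-fold above the Ly6c2 Ccr2 monocytes (226 ± 28.9 CPM), and each was higher than those in 6 of 6 libraries. Conventional dendritic cells had 398 ± 129 CPM, osteoclasts 131 ± 34.1 CPM and B cells 46.6 ± 19.7 CPM. In neutrophils it ran against the other receptors, with 59.1 to 79.2 CPM in precursors and 12.4 to 43.2 CPM in mature cells, lower in the mature cells in 6 of 6 libraries. The level in mature cells rests on 6 to 53 UMIs per library and is 13.5% to 22.8% of that in free RNA, against 3.20% to 6.48% in mesenchymal cells. These differ in depth, with medians of 1028 to 1531.5 UMIs per mature neutrophil and 9714 to 17213 per mesenchymal cell. The part of free RNA in the level of mature neutrophils was not tested.

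**Figure D1:**
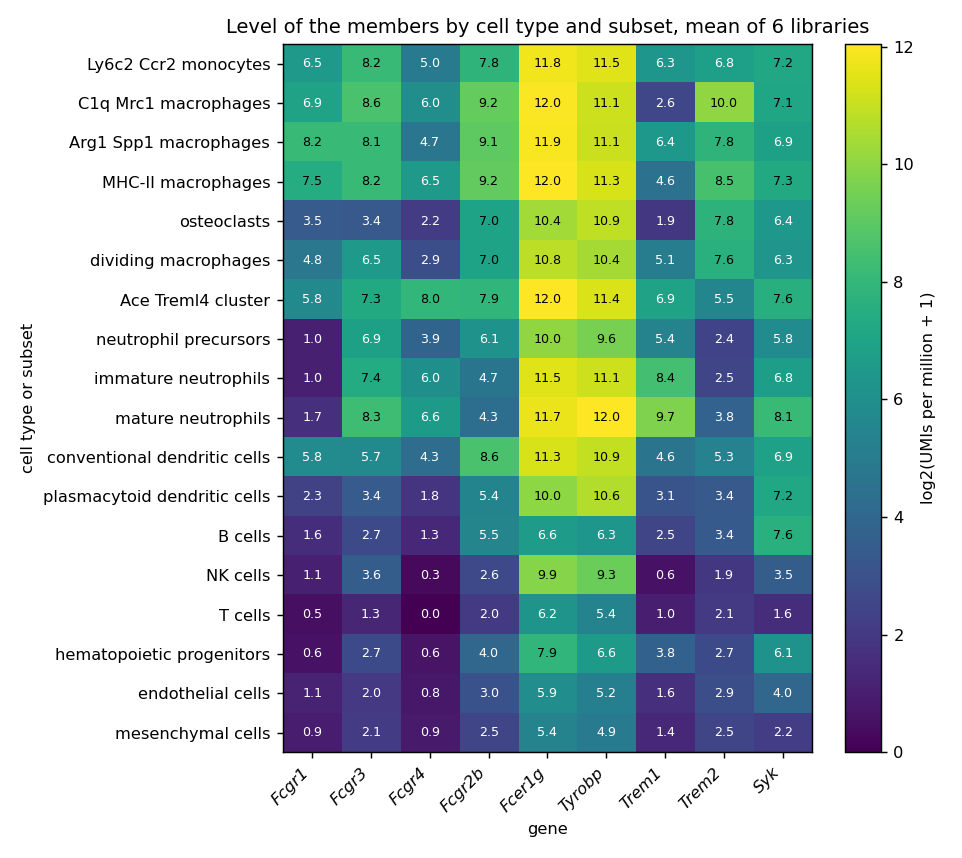
Level of each of the 9 genes (columns) in each cell type or subset (rows), as log2(CPM + 1) of the mean over 6 libraries, with the color scale at the right. Fcer1g and Tyrobp are high in every myeloid row, Trem1 is highest in mature neutrophils, Trem2 in C1q Mrc1 macrophages and Fcgr4 in the Ace Treml4 cluster.

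The balance between the inhibitory and the activating receptors was described as the share of Fcgr2b among the UMIs of the 4 receptors. A 3′ library counts 1 end of each molecule, and the share is compared between cell types and not between genes. Fcgr2b made up 83.6 ± 5.48% of receptor UMIs in osteoclasts, 82.0 ± 10.5% in B cells and 74.2 ± 7.14% in conventional dendritic cells (SD, n = 6). Around the middle were C1q Mrc1 macrophages with 51.2 ± 6.50% and Ly6c2 Ccr2 monocytes with 35.7 ± 3.83%. In neutrophils the share went from 34.4 ± 4.40% in precursors over 10.0 ± 3.36% in immature cells to a mean of 4.68% in mature cells, with the low Fcgr2b counts given above, where Fcgr3 took 72.3 ± 5.38% and Fcgr4 22.5 ± 7.17%. Fcgr1 took its largest part in Arg1 Spp1 macrophages, 26.1 ± 9.75%. In B cells these shares rest on 82 to 314 receptor UMIs per library. Fcgr2b was there at 25.1% to 60.8% of its level in free RNA, and the part of free RNA was not tested.

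**Figure D2:**
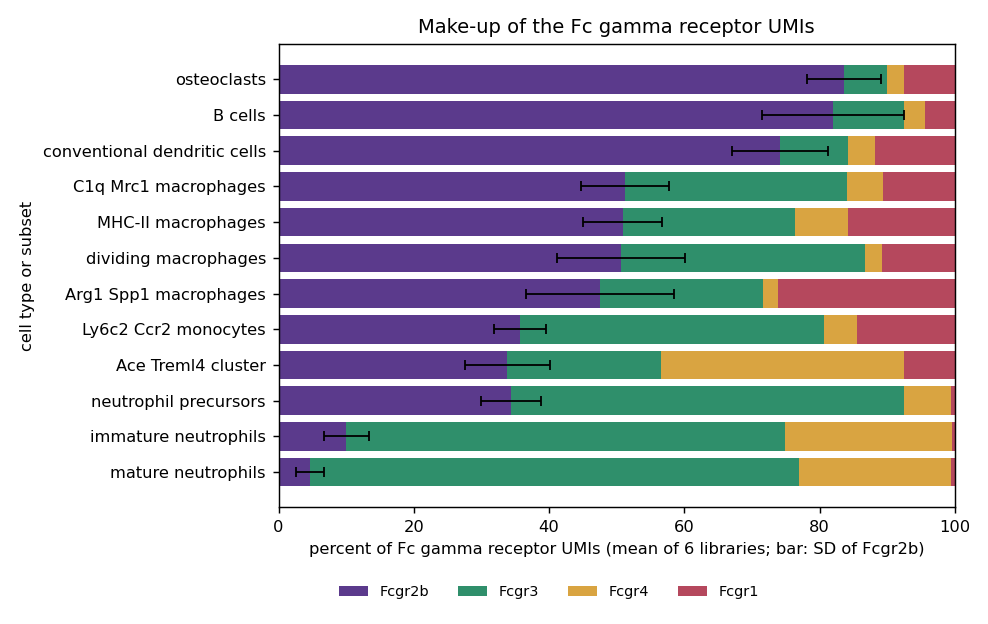
Percent of the UMIs of the 4 Fc gamma receptors (horizontal axis) that belong to each receptor, by cell type or subset (vertical axis), as the mean of 6 libraries; the black bar is the SD of the Fcgr2b share. The Fcgr2b share is 83.6% in osteoclasts at the top and 4.68% in mature neutrophils at the bottom.

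The adaptors were far more widely shared than the receptors. Fcer1g was at 4258 ± 542 CPM in the Ace Treml4 cluster, 4237 ± 315 CPM in MHC-II macrophages and 4038 ± 231 CPM in C1q Mrc1 macrophages, with overlapping ranges. Mature neutrophils had 3322 ± 747 CPM and conventional dendritic cells 2548 ± 180 CPM. Osteoclasts were at 1320 ± 123 CPM, 0.326 times the level of the C1q Mrc1 macrophages and lower in 6 of 6 libraries. Mesenchymal cells had 42.8 ± 12.6 CPM. For all 9 genes their level was 1.58% to 7.31% of that in free RNA, and the part of free RNA in it was not tested.

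Tyrobp had its highest level in mature neutrophils, where it was above the Ly6c2 Ccr2 monocytes in 6 of 6 libraries. The wild-type libraries had 6172, 6133 and 3596 CPM and the Nlrp3-/- libraries 3047, 3195 and 3683 CPM, so that wild-type replicate 3 lay among the Nlrp3-/- values. Osteoclasts had 0.827 times the level of the C1q Mrc1 macrophages. NK cells carried both adaptors and T cells almost none. Fcer1g was 12.7-fold and Tyrobp 15.8-fold higher in NK cells than in T cells, each in 6 of 6 libraries, although Nlrp3-/- replicate 1 had only 19 NK cells. Across 15 cell types and subsets the levels of the adaptors followed each other (Pearson r = 0.986 of log2(CPM + 1)), while those of Trem1 and Trem2 did not (r = 0.043). These types share the libraries and their depth, and the values are given without a test.

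Trem1 and Trem2 were carried by different cells. Trem1 stood at 840 ± 150 CPM in mature neutrophils, 352 ± 55.7 CPM in immature neutrophils and 41.2 ± 6.58 CPM in neutrophil precursors. Mature cells were thus 20.3-fold above precursors, in 6 of 6 libraries. After each cell had been thinned to 1000 UMIs, 42.4% to 57.4% of mature neutrophils and 0.128% to 0.481% of mesenchymal cells still held a Trem1 UMI. Unthinned, at median depths of 1028 to 1531.5 and of 9714 to 17213 UMIs per cell, these shares were 49.4% to 66.8% and at most 3.99%. Thinning left out 2393 of the 6928 mature neutrophils and 62 of the 11841 mesenchymal cells, all of which had under 1000 UMIs. Within the macrophages Trem1 differed between subsets. The Ace Treml4 cluster had 128 ± 41.3 CPM, from 6 to 37 UMIs per library, and was above the Ly6c2 Ccr2 monocytes in 5 of 6 libraries. C1q Mrc1 macrophages had 5.67 ± 3.77 CPM, 0.0588 times the level of the Ly6c2 Ccr2 monocytes (82.2 ± 19.9 CPM). The Arg1 Spp1 macrophages, at 87.3 ± 20.8 CPM, did not differ from those monocytes beyond the spread of the libraries.

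Trem2 was a macrophage transcript in these tissues. Its level was 1061 ± 97.3 CPM in C1q Mrc1 macrophages, with no overlap with the MHC-II macrophages (383 ± 116 CPM). Ly6c2 Ccr2 monocytes had 112 ± 23.0 CPM, and the C1q Mrc1 macrophages were 9.60-fold above them in 6 of 6 libraries. Arg1 Spp1 macrophages, osteoclasts and dividing macrophages had 231 ± 64.3, 227 ± 42.1 and 214 ± 90.8 CPM, with overlapping ranges. In neutrophils Trem2 was at 2.55 to 21.5 CPM, which is 1.76% to 5.21% of its level in free RNA. Mesenchymal cells, at the greater depth given above, were at 1.9% to 2.7% of it, and the part of free RNA in the neutrophil values was not tested.

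Syk, the kinase that both adaptors recruit, was found in nearly all blood-derived cells. It was at 278 ± 31.1 CPM in mature neutrophils, 203 ± 50.4 CPM in B cells, where it also serves the antigen receptor, and 138 ± 7.50 CPM in C1q Mrc1 macrophages. T cells, whose antigen receptor uses the related kinase Zap70, had 4.30 ± 5.22 CPM. Neutrophil precursors had 55.7 ± 5.62 CPM, below the mature neutrophils in 6 of 6 libraries.

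The neutrophil subsets ordered most of the group in 1 direction. Between precursors and mature cells, Trem1, Fcgr4 (6.72-fold), Tyrobp (5.44-fold), Syk, Fcer1g (3.13-fold) and Fcgr3 (2.73-fold) were higher in the mature cells in 6 of 6 libraries, and Fcgr2b, at the low counts given above, was 0.280 times as high. Between immature and mature cells there were 2 exceptions among these 6 genes: Fcgr4 in Nlrp3-/- replicate 1, with 60.6 and 48.6 CPM, and Fcer1g in Nlrp3-/- replicate 2, with 2870 and 2861 CPM. The mature neutrophils had a median of 1028 to 1531.5 UMIs per cell and the precursors 6732 to 13209, and the part of this depth in the order was not tested.

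**Figure D3:**
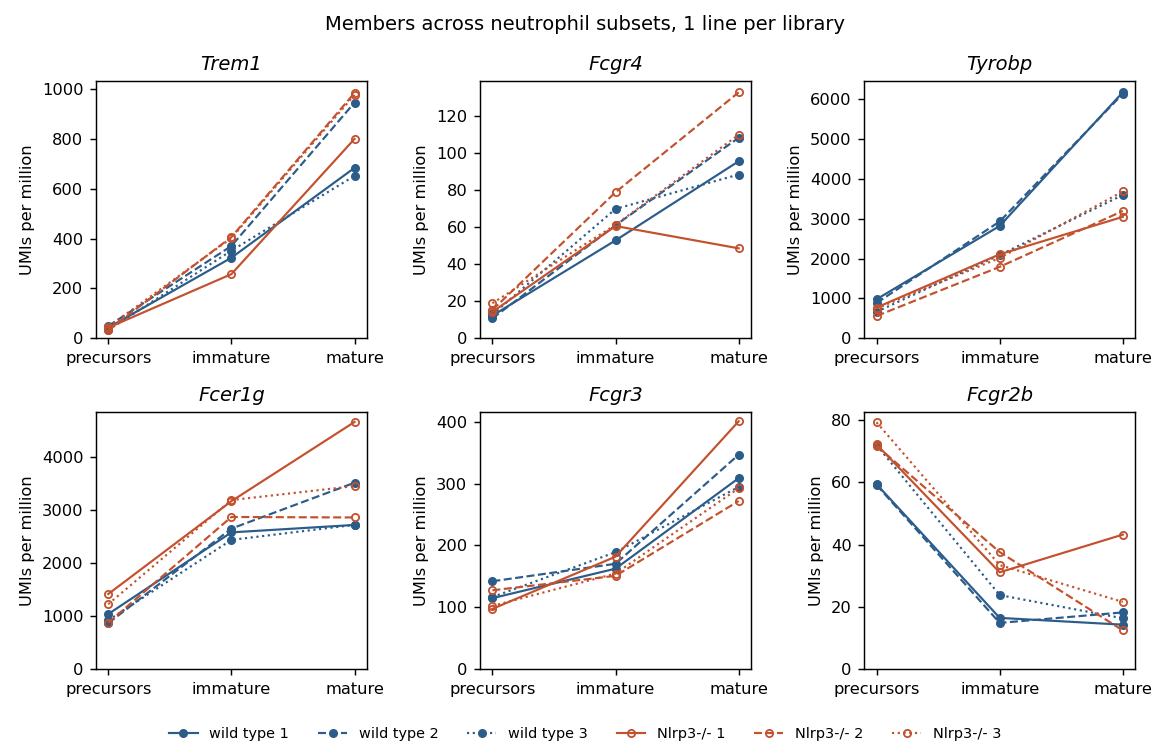
Level in CPM (vertical axes, each starting at 0) of 6 genes in neutrophil precursors, immature and mature neutrophils, with 1 line per library and the genotypes in different colors. The lines of Trem1, Fcgr4, Tyrobp, Fcer1g and Fcgr3 end higher than they start in all 6 libraries, and those of Fcgr2b end lower; in the Tyrobp panel wild-type replicates 1 and 2 lie above the other 4 libraries.

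The genes outside the members whose levels across the 15 types and subsets were most like those of each member were searched. There were 6230 genes with at least 50 CPM in a type. For Fcgr1 the nearest were Clec4a1, Capza2 and Clec4a3 (Pearson r = 0.964 to 0.980), and for Fcgr2b Aif1, Clec4a3 and Capza2 (0.906 to 0.910). Fcgr2b was nearer to the member Fcgr1 (0.916) than to these. Those nearest Fcgr3 were Lst1, Lyz2 and Gm21188 (0.954 to 0.973), and those nearest Fcgr4 were Lpcat2, Lst1 and Gm34084 (0.962 to 0.968). Outside the members, Pirb, an inhibitory receptor, was the nearest gene to both adaptors (0.973 for Fcer1g and 0.979 for Tyrobp). The adaptors were nearer to each other (0.986). Pirb was followed by Arl11 and Lst1 for Fcer1g and by Nfam1 and Fgr for Tyrobp. Trem1 was nearest to Hcar2, Slc7a11 and Plaur (0.943 to 0.966), and Trem2 to Ms4a7, C3ar1 and Msr1 (0.961 to 0.962). The 3 genes nearest Syk were Btk, Lyn and Plcg2 (0.903 to 0.933), which encode a kinase, a kinase and a phospholipase of the same pathway.

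The comparison of the genotypes asked whether the receptors and their adaptors differed in cells of the injured enthesis without Nlrp3. Of the cell types and subsets, 14 were chosen for a test, and 11 of these had at least 20 cells in each library. The others, mesenchymal, endothelial and T cells, dividing macrophages, the Ace Treml4 cluster and neutrophil precursors among them, were not chosen for a test. No member passed the threshold in any of the 11 (edgeR quasi-likelihood test on summed UMIs, Benjamini-Hochberg adjusted p under 0.05 over all genes tested). The count was 0 of 9 in macrophages, where 0.265% of all genes tested passed, 0 of 9 in neutrophils (0.262%), 0 of 9 in conventional dendritic cells (2.08%) and 0 of 7 in B cells (0.128%). It was 0 of 9 also in Ly6c2 Ccr2 monocytes (0.406%), C1q Mrc1 macrophages (0.528%), Arg1 Spp1 macrophages (0.185%) and MHC-II macrophages (0.629%). In osteoclasts (0.613%), immature neutrophils (1.04%) and mature neutrophils (0.14%) 8 members were tested and 0 passed. At an unadjusted p under 0.05 the number of members was 1 of 9 in macrophages (14.8% of all genes tested had such a p), 1 of 9 in neutrophils (8.27%), 3 of 9 in conventional dendritic cells (20%) and 0 of 7 in B cells (6.49%). It was 2 or 3 in each subset, where the share of all genes was 14.4% in Ly6c2 Ccr2 monocytes, 14% in C1q Mrc1, 7.58% in Arg1 Spp1 and 16.6% in MHC-II macrophages, 18.9% in osteoclasts, 14.8% in immature and 9.31% in mature neutrophils. The DESeq2 Wald test called 1 member in each of 4 of these types: Tyrobp in conventional dendritic cells (adjusted p = 0.00825) and in C1q Mrc1 macrophages (0.0430), Trem2 in MHC-II macrophages (0.0415) and Fcgr1 in osteoclasts (0.0383). It called 3.11%, 1.34%, 1.63% and 2.39% of all genes in these types, more than edgeR in each. Without wild-type replicate 3 the edgeR test called members in 7 types, and also far more of all genes: 3.76% in macrophages, 15.3% in conventional dendritic cells, 8.82% in Ly6c2 Ccr2 monocytes, 9.6% in C1q Mrc1 macrophages, 12.2% in MHC-II macrophages, 18.7% in osteoclasts and 8.67% in immature neutrophils. Without the filter on low counts the edgeR test called Tyrobp and Trem2 in conventional dendritic cells (3.25% of all genes called), MHC-II macrophages (3.12%) and immature neutrophils (2.35%), Tyrobp and Fcgr4 in Ly6c2 Ccr2 monocytes (2.67%), Tyrobp and Fcgr1 in osteoclasts (4.48%), Tyrobp in C1q Mrc1 macrophages (2.64%) and Trem2 in mature neutrophils (0.749%). Calls under these settings are read beside these shares.

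The levels in CPM and the fitted fold changes differ in scale. The trimmed mean (TMM) factors that edgeR applied were higher in the Nlrp3-/- libraries on average in every type. With library totals in their place, the median log2 fold change over all genes was 0.175 in macrophages, 0.259 in neutrophils and 0.238 in conventional dendritic cells, against 0.0196, 0.0272 and 0.0285 with TMM. Fold changes are given with TMM, as Nlrp3-/- over wild type. Among the members tested, the median log2 fold change was -0.12 in macrophages, -0.35 in neutrophils and 0.09 in conventional dendritic cells. The middle 50% of all genes in those types ran from -0.20 to 0.22, from -0.21 to 0.24 and from -0.25 to 0.30. Mature cells numbered 2108 of 4584, 2472 of 3913 and 872 of 2622 neutrophils in wild-type replicates 1 to 3. In Nlrp3-/- replicates 1 to 3 they numbered 733 of 1736, 331 of 2961 and 412 of 2580. The median of the members was -0.11 in immature and 0.09 in mature neutrophils, where 8 members were tested. The part of this make-up in the values of neutrophils as a whole was not tested.

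Tyrobp was the member with the lowest adjusted p, and its values turned on 1 wild-type library. In macrophages wild-type replicates 1 to 3 had 2781, 2910 and 1551 CPM and the Nlrp3-/- libraries 1915, 1388 and 1626 CPM. Wild-type replicates 1 and 2 were above all other libraries and wild-type replicate 3 was within the Nlrp3-/- range, and the fitted log2 change was -0.71 ± 0.28 (SE; edgeR adjusted p = 0.313). Without wild-type replicate 3 it was -0.98 (edgeR adjusted p = 0.0487), a setting in which 3.76% of all genes passed. In conventional dendritic cells the values were 2659, 2678 and 1769 CPM against 1671, 1634 and 1666 CPM. Here every wild-type value was above every Nlrp3-/- value, and the groups of 26% of all genes tested in that type were apart in the same way. The fitted log2 change was -0.73 ± 0.19 (edgeR adjusted p = 0.0567). That value passed with the replicate block (-0.69, edgeR adjusted p = 0.0323), where 2.99% of all genes passed, and without wild-type replicate 3 (-0.95, 0.000131), where 15.3% did. It was further from the threshold without wild-type replicate 1 (-0.62, 0.263) or 2 (-0.62, 0.256). In these dendritic cells 12 of 12 neutrophil markers were higher in Nlrp3-/- libraries (sums of 580 to 1349 CPM in wild-type and 986 to 1804 CPM in Nlrp3-/- libraries, Cxcr2 at 0 in a library). The sums of macrophage markers were 2002 to 2857 and 2732 to 3067 CPM and those of mesenchymal markers 325 to 513 and 700 to 1134 CPM. The part of these markers was not tested.

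In neutrophils Tyrobp was at 2444, 2894 and 1458 CPM in wild-type and 1889, 976 and 1296 CPM in Nlrp3-/- libraries, again with wild-type replicate 3 inside the other group (fitted log2 change -0.89 ± 0.41, edgeR adjusted p = 0.613). Over the 11 types and subsets, some of which are parts of others, its fitted value was below 0 in 10 with TMM, with RLE size factors and with library totals, and 9 had an unadjusted p under 0.05, as 6.49% to 20% of all genes had in the 11. The exception was B cells, at 0.20, where without Nlrp3-/- replicate 1 it was -1.03. Without wild-type replicate 3 the test called it in 7 of the 11, in which 3.76% to 18.7% of all genes were called. Summed markers of neutrophils within the macrophages, 3 of 12 of them higher in Nlrp3-/- libraries, were at 1929 to 4218 CPM in wild-type and 1301 to 1965 CPM in Nlrp3-/- libraries. None of these markers was at 0 in a library, while 10 of 10 mesenchymal markers were higher in Nlrp3-/- macrophages (sums of 246 to 561 CPM against 481 to 1113 CPM). The part of either list in the Tyrobp values was not tested.

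**Figure D4:**
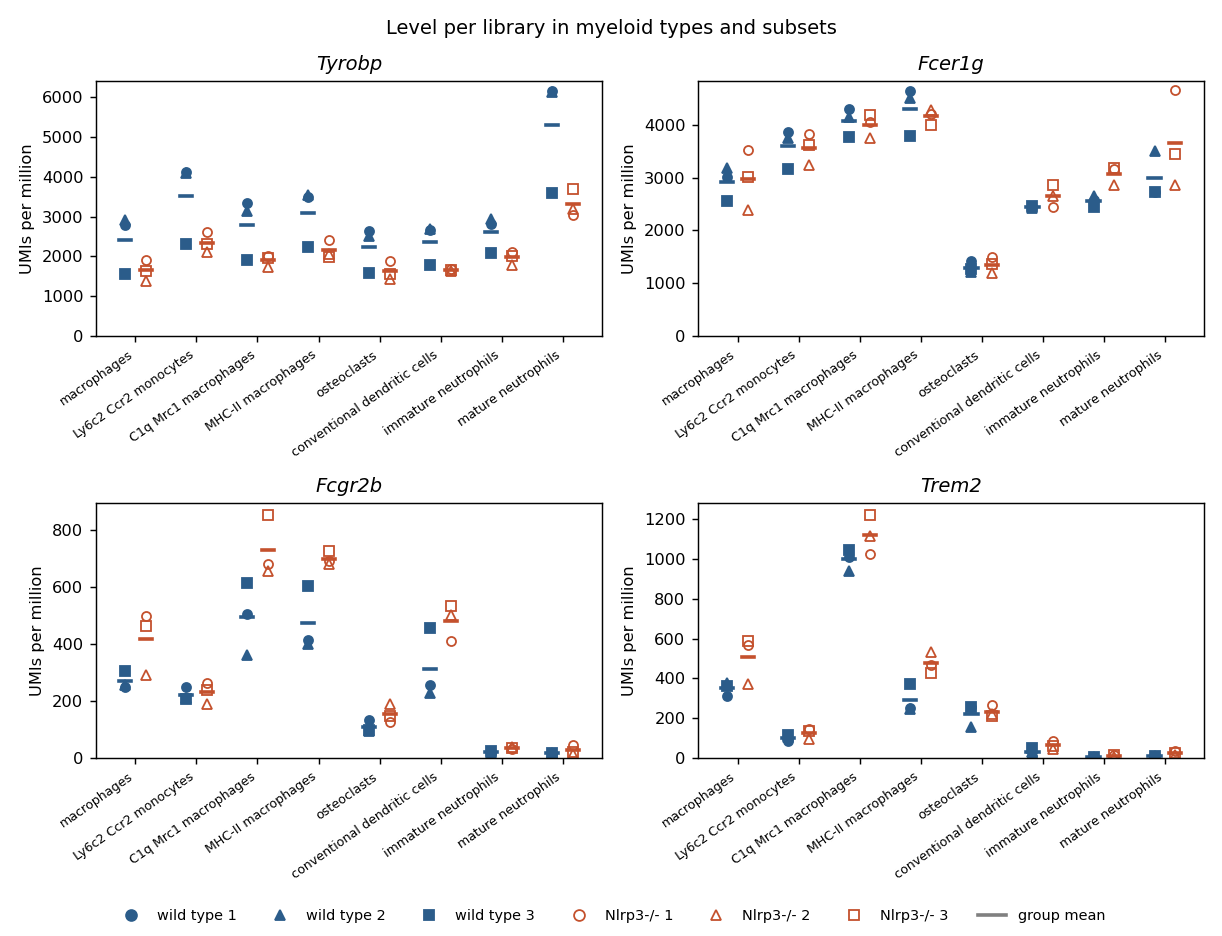
Level in CPM (vertical axes, each starting at 0) of Tyrobp, Fcer1g, Fcgr2b and Trem2 in each library by cell type or subset; filled symbols are wild-type libraries, open symbols Nlrp3-/- libraries, and short lines the group means. Wild-type replicates 1 and 2 lie above the other 4 libraries for Tyrobp in every column, while for Fcer1g both do so only in MHC-II macrophages.

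The same libraries were set apart by the ratio of the adaptors. This ratio of Tyrobp to Fcer1g UMIs is compared between libraries within a cell type, and it was chosen after the values had been seen. In macrophages it was 0.925, 0.915 and 0.606 in wild-type and 0.543, 0.583 and 0.541 in Nlrp3-/- libraries. In neutrophils it was 1.36, 1.38 and 0.881 against 0.646, 0.648 and 0.641, so there all 3 wild-type libraries were above all 3 Nlrp3-/- libraries. Wild-type replicates 1 and 2 were above the other 4 libraries in 13 of 13 types and subsets. Wild-type replicate 3 was above all Nlrp3-/- libraries in 10 of the 13. These include macrophages and neutrophils beside their own subsets, all from the same libraries, and are not separate observations. Free RNA held 1979, 1626 and 985 CPM of Tyrobp in wild-type and 1480, 700 and 1159 CPM in Nlrp3-/- libraries. It held 1564, 1350 and 1263 CPM of Fcer1g against 2047, 965 and 1619 CPM, and its part was not tested. Nothing in the ratio shows which of the 2 genes differed.

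Fcer1g itself passed in no type. In macrophages it was at 3006, 3182 and 2559 CPM in wild-type and 3526, 2381 and 3008 CPM in Nlrp3-/- libraries, and the groups overlapped. The log2 fold change was -0.12 ± 0.21 with TMM (edgeR adjusted p = 0.812) and 0.03 with library totals, so its sign depends on the scaling. In neutrophils its log2 fold change of 0.06 rested on Nlrp3-/- replicate 1, which had 2923 CPM against 1505 to 2091 CPM in the others, and was -0.37 without it. B cells show the same library: Nlrp3-/- replicate 1 had 467 CPM of Fcer1g against 51.1 to 90.9 CPM in the other libraries, and the log2 fold change of 1.36 became -0.21 without it. The summed macrophage markers in B cells were at 106 to 184 CPM in wild-type and 172 to 1133 CPM in Nlrp3-/- libraries, with 12 of 12 higher in the latter and none at 0. Neutrophil markers summed to 1469 to 3633 CPM in wild-type B cells and to 14144, 1000 and 1294 CPM in those of Nlrp3-/- replicates 1 to 3, with 8 of 12 higher in Nlrp3-/- libraries. Mesenchymal markers summed to 322 to 686.5 CPM and to 6560, 840 and 1096 CPM, with 10 of 10 higher. Nlrp3-/- replicate 1 was thus the highest library for all 3 lists, and their part in the B cell values was not tested.

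Fcgr2b had fitted values above 0 in 10 of 11 types and subsets with TMM and in 11 of 11 with library totals. Some of these are parts of others. With library totals the median over all genes was also above 0, at 0.0814 to 0.259. Fcgr2b passed in none. The study itself named this gene in its macrophages from the same samples, so its direction here is not independent evidence. In macrophages it was at 248.5, 256 and 304 CPM in wild-type and 497, 290 and 465 CPM in Nlrp3-/- libraries, where Nlrp3-/- replicate 2 was below wild-type replicate 3. The fitted log2 change was 0.50 ± 0.23 (edgeR adjusted p = 0.351), and 0.31 without Nlrp3-/- replicate 1. The C1q Mrc1 macrophages, a subset with much Fcgr2b, made up 9.77%, 15.2% and 14.7% of the macrophage cells in wild-type and 35.7%, 11.4% and 24.4% in Nlrp3-/- libraries. Nlrp3-/- replicates 1 and 3 had both the largest shares of this subset and the highest levels. MHC-II macrophages, with a similar level, made up 14.3%, 17.8% and 9.87% against 7.57%, 6.63% and 12.3%. Arg1 Spp1 macrophages made up 7.73%, 8.92% and 10.5% against 15.1%, 7.78% and 5.92%. These are shares of cells and not of UMIs. The part of this make-up in the macrophage value was not tested beyond the values within subsets. MHC-II macrophages had 415, 400 and 605 CPM against 690, 683 and 727 CPM. There the genotypes were fully apart, as were those of 1762 of 8908 genes tested, with a fitted log2 change of 0.48 ± 0.16 (edgeR adjusted p = 0.168). They were apart also in C1q Mrc1 macrophages (log2 fold change 0.48, edgeR adjusted p = 0.272, and 0.30 without wild-type replicate 2), where 1805 of 9474 genes were. The same held in neutrophils as a whole (log2 fold change 0.26, edgeR adjusted p = 0.669, and 0.47 with library totals), where 1684 of 11448 genes were apart. It held too in the immature neutrophils among them (0.63, edgeR adjusted p = 0.151), where 1616 of 7202 genes were. Free RNA held 75.9 to 97.1 CPM of Fcgr2b in wild-type and 81.8 to 190 CPM in Nlrp3-/- libraries, and with free RNA subtracted at 10% of the UMIs the value was 0.15 in neutrophils (edgeR adjusted p = 0.832) and 0.74 in immature neutrophils (0.317). In the MHC-II macrophages 9 of 10 mesenchymal markers were higher in Nlrp3-/- libraries, with sums of 248 to 571 CPM against 402 to 1176 CPM and Pdgfra and Pdgfrb at 0 in a library, and their part was not tested.

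In conventional dendritic cells Fcgr2b stood at 255, 227 and 458 CPM in wild-type and 409, 502 and 535 CPM in Nlrp3-/- libraries. Wild-type replicate 3 again lay among the Nlrp3-/- libraries, and the fitted log2 change was 0.45 ± 0.20 (edgeR adjusted p = 0.222), and 0.28 without wild-type replicate 2 (0.646). Without wild-type replicate 3 the test called Fcgr2b in 4 types and subsets: conventional dendritic cells (edgeR adjusted p = 0.00348), MHC-II macrophages (0.00521), immature neutrophils (0.0287) and C1q Mrc1 macrophages (0.0457). In these 15.3%, 12.2%, 8.67% and 9.6% of all genes were called without it. The share of Fcgr2b among the receptor UMIs of macrophages was 39.9%, 41.2% and 51.7% in wild-type and 55.5%, 50.4% and 56.0% in Nlrp3-/- libraries, which overlapped.

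Members whose 3 wild-type and 3 Nlrp3-/- levels in CPM did not overlap are counted beside the share of all genes tested with such groups. There was 0 of 9 in macrophages (22.9% of all genes tested) and 1 of 9 in neutrophils (14.7%). Conventional dendritic cells had 1 of 9 (2101 of 8073 genes tested) and B cells 0 of 7 (13.1%). Monocytes had Fcgr4 as the only one of 9 (19.5%), C1q Mrc1 macrophages Fcgr2b (19.1%) and Arg1 Spp1 macrophages Trem1 (12.6%). The 2 in MHC-II macrophages were Fcgr2b and Trem2 (19.8%), osteoclasts had 0 of 8 (23.4%), and mature neutrophils had Trem2 (15.1%). The highest count was 3 of 8 in immature neutrophils, against 22.4% of all genes, and consisted of Fcgr2b, Fcer1g and Trem2. In that subset Fcer1g was at 2438 to 2651 CPM in wild-type and 2870 to 3189 CPM in Nlrp3-/- libraries, yet its log2 fold change with TMM was 0.02. The median over all genes there was 0.25 with library totals.

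Trem2 had fitted values above 0 in 10 of 11 types and subsets with TMM and in 11 of 11 with library totals. Some of these are parts of others, and with library totals the median over all genes was above 0 too. In MHC-II macrophages it was at 252, 247 and 370 CPM in wild-type and 469, 533 and 425 CPM in Nlrp3-/- libraries. Every Nlrp3-/- value was above every wild-type value, and 1762 of 8908 genes tested there had groups that did not overlap. The fitted log2 change of Trem2 was 0.63 ± 0.17 (edgeR adjusted p = 0.0968). Without wild-type replicate 3 it was 0.79 (edgeR adjusted p = 0.00235), beside 12.2% of all genes called. In conventional dendritic cells Trem2 had 10.5, 31.0 and 47.2 CPM against 85.6, 44.6 and 57.4 CPM, and Nlrp3-/- replicate 2 was below wild-type replicate 3 (fitted log2 change 0.87 ± 0.33, edgeR adjusted p = 0.161). It was 1.16 without wild-type replicate 3 (edgeR adjusted p = 0.0231, beside 15.3% of all genes called) and 0.50 without wild-type replicate 1 (0.465). The summed macrophage markers of these dendritic cells, given above, were also higher on average in Nlrp3-/- libraries, and their part was not tested. In the C1q Mrc1 macrophages, which had the highest level, the values were 1010, 942 and 1047 CPM against 1027, 1118 and 1222 CPM, and the log2 fold change of 0.07 ± 0.14 was within the spread of the libraries. Neutrophils showed larger folds at low levels. Immature neutrophils had 1.58, 2.65 and 2.97 CPM of Trem2 against 12.4, 4.88 and 11.4 CPM (fitted log2 change 1.68 ± 0.48, edgeR adjusted p = 0.123). Without Nlrp3-/- replicate 2 it was 2.12, just inside the threshold after adjustment, which 0.494% of all genes passed. Free RNA held 137, 147 and 144 CPM of Trem2 in the wild-type and 412, 135 and 310 CPM in the Nlrp3-/- libraries. Its part in the neutrophil values was not tested, since at 1.76% to 5.21% of the level in free RNA the subtraction of 10% of the UMIs leaves 0 counts whatever their source. Summed macrophage markers in neutrophils were at 1132 to 1644 CPM in wild-type and 1248 to 1909 CPM in Nlrp3-/- libraries. Of these markers 11 of 12 were higher in Nlrp3-/- libraries, and their part was not tested.

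Fcgr1 had fitted values below 0 in 7 of 8 types and subsets tested with TMM and in 6 of 8 with library totals. In osteoclasts, where it is low, wild-type libraries had 23.2, 14.3 and 8.14 CPM and Nlrp3-/- libraries 8.35, 6.79 and 5.98 CPM. The groups overlapped, and the fitted log2 change was -1.35 ± 0.37 (edgeR adjusted p = 0.118). Without wild-type replicate 3 it was -1.65 (edgeR adjusted p = 0.00356), beside 18.7% of all genes called. With clusters of 1 library kept it was -0.73 (edgeR adjusted p = 0.435). Summed macrophage markers in osteoclasts were at 2139, 1723 and 1632 CPM in wild-type and 1341, 1714 and 1638 CPM in Nlrp3-/- libraries. Of these markers 4 of 12 were higher in Nlrp3-/- libraries, and their part was not tested. In Ly6c2 Ccr2 monocytes Fcgr1 had 140, 104 and 68.6 CPM against 76.6, 79.6 and 91.9 CPM, with wild-type replicate 3 below the Nlrp3-/- libraries (fitted log2 change -0.49 ± 0.24, edgeR adjusted p = 0.368). Without that library it was -0.74 (edgeR adjusted p = 0.0207), beside 8.82% of all genes called, but without wild-type replicate 1 it was -0.20 (0.892) and at a clustering resolution of 2.0 -0.23 (0.665). In macrophages it had 136, 133 and 70.3 CPM against 112, 72.9 and 94.9 CPM (fitted log2 change -0.44 ± 0.30, edgeR adjusted p = 0.510). Single libraries moved this value, to -0.72 without wild-type replicate 3, -0.26 without wild-type replicate 1 and -0.26 without Nlrp3-/- replicate 2, and it was -0.28 with library totals.

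Fcgr4 in Ly6c2 Ccr2 monocytes was at 37.1, 37.4 and 37.6 CPM in wild-type and 20.6, 25.2 and 27.2 CPM in Nlrp3-/- libraries. The fitted log2 change was -0.76 ± 0.18 (edgeR adjusted p = 0.127), and without wild-type replicate 3 it was -0.79 (edgeR adjusted p = 0.0230), where 8.82% of all genes passed. Fcgr4 is also high in neutrophils, and the summed neutrophil markers in these monocytes were at 4623, 3671 and 7892 CPM in wild-type and 1441, 1959 and 4520 CPM in Nlrp3-/- libraries, with 4 of 12 higher in the latter and none at 0. Their part in the Fcgr4 value was not tested. Without a filter on low counts the adjusted p was also 0.0230, and 2.67% of all genes passed. The fitted value of Fcgr4 was above 0 in 3 of 10 types and subsets with TMM, with 0.37 in conventional dendritic cells as the highest. With library totals it was above 0 in 5 of 10. In osteoclasts, with 3 to 22 UMIs per library, it was -1.13, and it ran from -2.12 without Nlrp3-/- replicate 2 to -0.57 without Nlrp3-/- replicate 3 and was -0.12 with clusters of 1 library kept.

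For Fcgr3, Trem1 and Syk the groups overlapped in all types tested, except for Trem1 in Arg1 Spp1 macrophages. Trem1 had 71.9, 58.3 and 81.5 CPM there in wild-type and 97.8, 116 and 98.0 CPM in Nlrp3-/- libraries (fitted log2 change 0.47 ± 0.18, edgeR adjusted p = 0.649), and at a clustering resolution of 2.0 the value was 0.09 (0.937). In conventional dendritic cells it had 14.8, 14.1 and 35.8 CPM against 26.95, 28.6 and 31.0 CPM, and the fitted log2 change of 0.33 ± 0.30 (edgeR adjusted p = 0.563) became 0.75 without wild-type replicate 3 (0.0462, beside 15.3% of all genes called) and 0.08 without wild-type replicate 2 (0.949). In mature neutrophils, its main cells, it had 683, 945 and 651 CPM against 799, 983 and 976 CPM, and the log2 fold change of 0.20 ± 0.24 was within the spread. Fcgr3 in macrophages differed by 0.06 ± 0.18 on the log2 scale (edgeR adjusted p = 0.897) and Syk by -0.05 ± 0.15 (0.902). The sign of the latter turned to 0.10 with library totals.

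**Figure D5:**
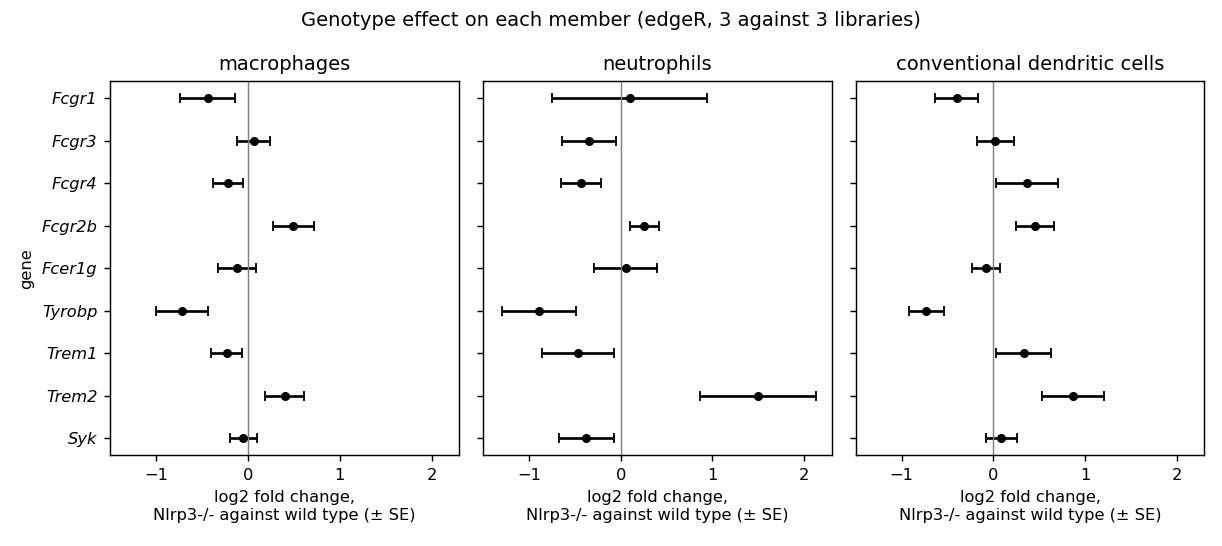
Log2 fold change, Nlrp3-/- over wild type, of each of the 9 genes in macrophages, neutrophils and conventional dendritic cells (horizontal axes), from edgeR on 3 against 3 libraries; points are estimates and bars ± 1 SE. Tyrobp is at -0.71, -0.89 and -0.73, and no point passed the threshold after adjustment over all genes.

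Whether a genotype effect differed between macrophages and neutrophils was tested as an interaction with the library as a block. 0 of 9 members passed, against 0.0149% of all genes tested. The lowest unadjusted p from edgeR was that of Fcgr3, whose effect in macrophages was 0.48 ± 0.20 higher on the log2 scale than in neutrophils (edgeR adjusted p = 0.793). For Tyrobp the difference was 0.29 ± 0.21 (edgeR adjusted p = 0.945). The part of the neutrophil make-up given above in these differences was not tested.

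The other genes of the pathway were read from 5 lists with 60 genes. The first held 15 receptors listed as pairing with Fcer1g or Tyrobp, not all of which are known to do so. In macrophages 14 of them were tested and in neutrophils 14, and 0 passed in either direction. At an unadjusted p under 0.05 in edgeR there were 6 in macrophages and 1 in neutrophils, where 14.8% and 8.27% of all genes had such a p. In conventional dendritic cells 1 of 12 was lower in Nlrp3-/- libraries, Clec4d, a C-type lectin that recognizes mycobacterial lipids. Clec4d had 36.3, 40.1 and 61.1 CPM there in wild-type and 20.6, 32.1 and 25.2 CPM in Nlrp3-/- libraries (fitted log2 change -0.96 ± 0.23, edgeR adjusted p = 0.0407), from 13 to 105 UMIs per library. The call was lost with library totals (edgeR adjusted p = 0.101), with more doublets removed (0.187), with free RNA subtracted (0.251) and without any 1 library other than wild-type replicate 3 (0.0535 to 0.142). The median log2 fold change of this list was -0.20 in macrophages and -0.37 in neutrophils, beside 0.02 and 0.03 over all genes. The part of the neutrophil make-up in the value of neutrophils was not tested.

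The next lists were 12 receptors with inhibitory motifs, 18 signalling proteins downstream of the ITAM and 8 regulators of ITAM signalling. The regulators were Inpp5d, Ptpn6, Ptpn22, Ptprc, Dok1, Dok2, Dok3 and Ubash3b. These lists had 0 genes past the threshold of edgeR in any of the 11 types. In macrophages 0, 2 and 1 of their genes had an unadjusted p under 0.05. Their highest genes in wild-type macrophages were Sirpa and Clec4a2, Lyn and Lat2, and Ptprc and Ptpn6. Sirpa, the receptor for the "do not eat me" signal Cd47, was at 359 ± 51.7 CPM in wild-type and 444 ± 96.0 CPM in Nlrp3-/- macrophages (SD, n = 3; edgeR adjusted p = 0.730). Lyn, a kinase that phosphorylates the ITAM, was at 230 ± 33.1 and 240 ± 5.83 CPM (edgeR adjusted p = 0.757). Ptpn6, a phosphatase that some inhibitory motifs recruit, was at 142 ± 10.2 and 145 ± 14.7 CPM (edgeR adjusted p = 0.638). Among the receptors listed as pairing with the adaptors, Clec4n and Clec4d were highest, with 302 ± 36.8 and 356 ± 126 CPM for Clec4n (edgeR adjusted p = 0.907).

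The last list held 6 immunoglobulin heavy chains, Ighm, Igha, Ighg1, Ighg2b, Ighg2c and Ighg3, together with Fcgrt, the receptor that carries IgG across cells. Only the Ighg genes encode chains of IgG, and their RNA does not measure the IgG that receptors bind. Of these 7 genes 1 passed, Ighg2c, in neutrophils, with 8, 4 and 5 UMIs in wild-type and 13, 60 and 90 UMIs in Nlrp3-/- libraries (fitted log2 change 3.30 ± 0.49, edgeR adjusted p = 0.0493). Free RNA held 10.4, 5.21 and 13.3 CPM of Ighg2c in wild-type and 155, 220 and 116 CPM in Nlrp3-/- libraries, with no overlap. The level in neutrophils was 1.45% to 6.80% of that in free RNA, and the part of free RNA in the call was not tested, since subtracting 10% of the UMIs as free RNA leaves 0 counts at such levels whatever their source. The call was lost with RLE size factors (edgeR adjusted p = 0.0512), with the replicate block, with more doublets removed (0.216), with at least 1000 UMIs per cell (0.0674), with clusters of 1 library kept (0.0529) and without any of 4 libraries (0.175 to 0.252). The DESeq2 Wald test kept it (adjusted p = 1.51e-05). Fcgrt in macrophages was at 39.9 ± 5.69 CPM in wild-type and 54.6 ± 9.87 CPM in Nlrp3-/- libraries (edgeR adjusted p = 0.484).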

How the data were processed

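The authors deposited, for each of the 6 libraries, a matrix of UMI counts per gene and barcode, not normalized and with no cells called. The submitters' notes name Cell Ranger 2.1.1 and build mm10, and the matrix headers name Cell Ranger 4. The median depth of the cells was 1426 to 6757.5 UMIs per library. Barcodes with at least 500 UMIs, 200 genes and at most 10% mitochondrial UMIs that differed from free RNA (false discovery rate 0.01) were kept, and 13253 cells were removed by doublet score (0.8% per 1000 cells).

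Cells were clustered with scanpy 1.11.5 (2000 variable genes, the 9 members left out, 30 components, 20 neighbours, Leiden resolution 1.0) and named from marker lists. Names mean cells that resemble the type. The thresholds for naming were chosen with the clusters in view. Subsets are parts of their types, and differences between subsets can come from the rebuilt names. Counts were summed per library and type and tested with edgeR 4.0.16 (quasi-likelihood, TMM, filterByExpr) in R 4.3.3, and the same code was checked on simulated counts. Of 14 types and subsets chosen for a test, plasmacytoid dendritic cells, mast cells and basophils, and NK cells had under 20 cells in a library and were not tested. Alternatives were RLE factors, no filter, DESeq2 1.42.0, a replicate block, at least 1000 UMIs, at most 5% mitochondrial UMIs, 1.6% doublets, clusters of 1 library kept, free RNA subtracted at 10%, resolution 2.0, each library left out and, chosen after seeing the data, library totals without TMM.

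The members and lists were chosen with earlier results of these data known. All 9 members are named. Of the lists, up to 3 higher and 3 lower genes past the threshold per type and the 2 highest in wild-type macrophages are named. For each member the 3 genes outside the members most like it are also named. Promoter sequences are from RefSeq, and positions were matched to GENCODE by gene identifier.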

Additional observations from a re-analysis of the deposited data

How the results depend on the processing

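The log2 fold changes of members followed through the alternatives were 58, a part of all those tested, and 924 values were recomputed for them. Of these, 857 kept their direction and side of the threshold and 33 turned in sign. The other 34 passed the threshold in the same direction, 16 of them without wild-type replicate 3. The count of members called, 0 in each comparison, became 2 without the filter on low counts in conventional dendritic cells, Ly6c2 Ccr2 monocytes, MHC-II macrophages, osteoclasts and immature neutrophils, and 1 in C1q Mrc1 macrophages and mature neutrophils, where 0.749% to 4.48% of all genes were called. With the DESeq2 Wald test, which called 1.34% to 3.11% of all genes there, it was 1 in conventional dendritic cells, C1q Mrc1 macrophages, MHC-II macrophages and osteoclasts. With libraries left out it ranged from 0 to 4 in conventional dendritic cells, 0 to 3 in Ly6c2 Ccr2 monocytes and MHC-II macrophages, 0 to 2 in C1q Mrc1 macrophages, osteoclasts and immature neutrophils, and 0 to 1 in macrophages. The highest value in each came without wild-type replicate 3, where 3.76% to 18.7% of all genes were called, and without Nlrp3-/- replicate 2 it was 1 in immature neutrophils. The cause was not tested.

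The replicate block called 1 member in conventional dendritic cells, Tyrobp, and changed no other count. Same-numbered libraries correlated at -0.492 to 0.236, and at most 2 of 6 correlated best with their own number, so the numbers were not read as a pairing.

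Among these 58 values, signs turned without TMM for Fcer1g (0.028) and Syk (0.10) in macrophages, Fcer1g in conventional dendritic cells (0.13) and Fcgr2b in monocytes (0.061). Over all types tested, library totals in place of TMM raised the number of types with a value above 0 from 4 to 8 of 11 for Syk, 4 to 7 of 11 for Fcer1g, 6 to 8 of 11 for Fcgr3, 4 to 7 of 10 for Trem1, 3 to 5 of 10 for Fcgr4, 1 to 2 of 8 for Fcgr1 and 10 to 11 of 11 for Fcgr2b and Trem2. They turned with at least 1000 UMIs for Fcgr1 in neutrophils (-0.31), with the replicate block (-0.033) and with clusters of 1 library kept (-0.22) for Fcer1g in neutrophils, and without the filter (-0.004) and at resolution 2.0 (-0.16) for Fcgr3 in conventional dendritic cells. At resolution 2.0 Trem2 in C1q Mrc1 macrophages was at -0.066, and with free RNA subtracted the Trem2 interaction was at 0.23 with an SE of 3167, no usable estimate, since the subtraction leaves 0 counts in neutrophils at levels this low. With 1 library left out, values ran in macrophages from -0.087 to 0.221 (Fcgr3), -0.309 to 0.046 (Fcer1g) and -0.172 to 0.042 (Syk). In neutrophils they ran from -0.91 to 0.75 (Fcgr1) and -0.37 to 0.33 (Fcer1g), in conventional dendritic cells from -0.15 to 0.13 (Fcgr3) and -0.14 to 0.64 (Fcgr4), in monocytes from -0.231 to 0.079 (Fcgr2b), in C1q Mrc1 macrophages from -0.003 to 0.13 (Trem2), in immature neutrophils from -0.081 to 0.131 (Fcer1g) and in mature neutrophils from -0.061 to 1.05 (Fcgr2b). For the interaction they ran from -0.88 to 0.31 (Fcgr1), -0.217 to 0.089 (Fcer1g) and -0.024 to 0.663 (Trem1).

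Over all genes, 35 passed in macrophages, against 338 with DESeq2, 111 without the filter, 17 with the replicate block, 514 without wild-type replicate 3 and 21 without wild-type replicate 1. In neutrophils it was 30 against 104, 112, 14, 16 and 16, and 10 with more doublets removed. In conventional dendritic cells it was 168 (73 higher and 95 lower), against 536 without the filter, 1321 without wild-type replicate 3, 30 without Nlrp3-/- replicate 3 and 61 with more doublets removed, and 220 (182 higher and 38 lower) with library totals. Of 79 recomputed highest levels 78 stayed within 1 SD, and that of Fcgr1 in Arg1 Spp1 macrophages moved to 142 CPM. Plasmacytoid dendritic cells, NK cells and mast cells were too few to test.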

Other observations

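In the types too small to test, Tyrobp was high in plasmacytoid dendritic cells, at 4245, 3088 and 1799 CPM in wild-type and 624, 2211 and 524 CPM in Nlrp3-/- libraries. The libraries held 8 to 156 of these cells, and the values below 1000 CPM came from Nlrp3-/- replicates 1 and 3, with 8 and 19 cells. Fcer1g in the same cells was at 661 to 1577 CPM. In NK cells Tyrobp had 818, 1494 and 717 CPM in wild-type and 367, 461 and 474 CPM in Nlrp3-/- libraries, and Fcer1g 909, 1429 and 1105 CPM against 733, 783 and 835 CPM. No test was made, and the NK cells of Nlrp3-/- replicate 1 numbered 19. Fcgr3, by which NK cells bind IgG on target cells, was at 0 to 47.4 CPM in NK cells and at 0 to 12.5 CPM in T cells.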
